A study of Scomber scombrus with 32 samples.

Results

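Serum starvation was set against proliferation in Mack1, a line grown from the skeletal muscle of the Atlantic mackerel, at the culture stage labelled p27, which the labels place before immortalization. The comparison takes the 3 starvation and the 3 proliferation libraries of that stage from the count table, 6 of the 32 libraries of the series, and every gene with enough counts was tested. Starved cultures had reached confluence and were then no longer fed, for a time that the labels do not give. Proliferating cultures were kept in Leibovitz L-15 medium with 20% fetal bovine serum, 1 ng/mL FGF2 (a growth factor used to keep muscle precursors dividing), HEPES and an antibiotic and antimycotic mix, and are not said to be confluent. Feeding, with the serum and FGF2 that it brings, and any difference in cell density or in the age of the medium therefore cannot be told apart. Serum reduction at the same stage, in which confluent cultures were fed L-15 with 2.5% serum (3 libraries), is given beside some genes. All 9 libraries carry the same line, stage, batch and cell type label (muscle stem cell), and the 3 libraries of a group are called experimental replicates. Nothing says that these were separate cultures, so the spread behind each p-value is that between libraries and may be technical.

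When dividing muscle precursors leave the cell cycle, the MyoD family and MEF2 factors switch on the genes of the contractile apparatus, and the cells fuse into multinucleate fibres. The sarcomere, the unit of contraction, is built from thick myosin filaments and thin actin filaments that are anchored at Z discs and spanned by titin. In culture this programme is commonly started by letting cells become confluent and taking serum growth factors away. Teleost fish such as the mackerel kept many muscle genes in copies, marked a and b, from an extra genome duplication.

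Total counts were 27751154, 21484098 and 26756514 in the starved libraries and 23277969, 22823817 and 21841044 in the proliferating libraries. Values are CPM, the counts of a gene scaled to a common library total by TMM, which corrects for depth and composition but not for transcript length, so levels are compared between groups and not between genes. A single CPM value for a group is the mean of its 3 libraries. Fold changes are log2 values of starvation over proliferation ± SE from edgeR's quasi-likelihood test, and a gene said to rise, to fall or to have passed had a Benjamini-Hochberg adjusted p under 0.05. The first principal component of the 6 libraries held 88.8% of the variance of log2 CPM and separated the groups. In bulk RNA, more cells of a kind and more RNA per cell cannot be told apart. The libraries carry no strand information and many genes have close copies, so reads may be split between copies or shared with overlapping genes.

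Most of the measured genes differed. Of 15683 genes tested, 5377 (34.3%) were higher in starvation and 4710 (30.0%) were lower, 64.3% in all, and the median log2 fold change was 0.08. Among them 3023 genes were higher and 2498 were lower by at least 2-fold. For 11028 genes (70.3%) all 3 values of one group lay above all 3 of the other. Gene groups are read against these shares, so that a group with about 34.3% of members higher and 30.0% lower moved no more often than genes in general.

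**Figure D1:**
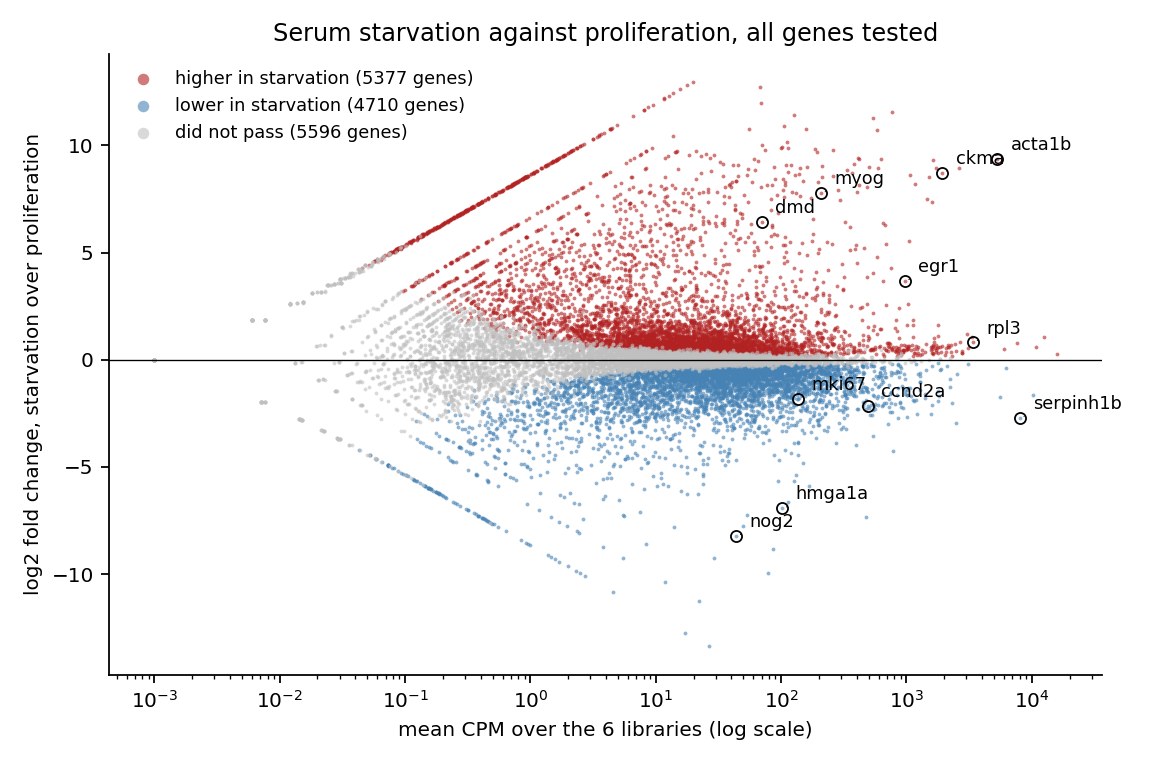
Log2 fold change of starvation over proliferation (vertical axis) against mean CPM over the 6 libraries (horizontal log axis) for 15683 genes, with red for the 5377 higher genes, blue for the 4710 lower genes and grey for the rest. Circled genes are named in the text, the straight streaks on the left are genes with no or few counts in one group, whose fitted values depend on the prior count, and genes with no count at all sit at the left edge.

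Skeletal actin and other muscle proteins made the largest gains in CPM, and a collagen chaperone and the cytoplasmic actins the largest losses. The skeletal alpha-actin acta1b (gene 133982524) had 10843, 10732 and 10253 CPM in starvation, against 13.1, 22.1 and 12.9 CPM in proliferation (log2 fold change 9.37 ± 0.33, adjusted p = 3.23e-19). Desmin (desma), the intermediate filament that ties Z discs together, stood at 3198 ± 188 CPM in starvation and 19.3 ± 3.25 CPM in proliferation (SD, n = 3 each, log2 fold change 7.37 ± 0.20). The myosin light chain mylpfb stood at 3445 ± 161 CPM in starvation and 6.96 ± 0.942 CPM in proliferation (SD, n = 3 each, log2 fold change 8.95 ± 0.22). In the other direction serpinh1b (gene 133980280), which encodes the collagen chaperone HSP47, had 2177, 1996 and 2242 CPM in starvation, against 13319, 14847 and 13356 CPM in proliferation (log2 fold change -2.69 ± 0.08, adjusted p = 1.41e-20). Cytoplasmic beta-actin, part of the skeleton of most cells, fell in both copies. Its copy actb2 had 4926 CPM in starvation and 15609 CPM in proliferation (log2 fold change -1.66 ± 0.07), and actb1 had 2596 CPM in starvation and 8505 CPM in proliferation (log2 fold change -1.71 ± 0.10). The starved and proliferating values of these 6 genes did not overlap. Of the 12 largest gains, 5 were genes with a locus number alone.

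Among genes with more than 3 counts in each group the myosin light chain myl13 had the highest fold, with 1075 ± 85.1 CPM in starvation and 0.425 ± 0.239 CPM in proliferation (SD, n = 3 each, log2 fold change 11.29 ± 0.24). The M band protein myom3 (log2 fold change 10.77 ± 0.31) and the myosin-binding protein mybpc3 (log2 fold change 10.16 ± 0.32) came next. In the same set the lowest folds belonged to the cartilage proteoglycan acanb, the oxidase subunit ncf4, the BMP antagonist nog2 and the cytokine il11a, followed by the LIM protein lmcd1 (log2 fold change -7.74 ± 0.33). The chromatin protein hmga1a followed these.

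Some genes were counted in 1 group alone. Starvation gave counts to 496 tested genes that had none in proliferation, and 357 of these passed. The most abundant with a symbol were the reductase dhrs7ca (at least 896-fold higher), the calcium-dependent kinase camk2a (at least 812-fold higher) and the AMP deaminase ampd3b (at least 710.1-fold higher). Proliferation gave counts to 159 tested genes that had none in starvation, and 93 of these passed. The most abundant were 2 genes known by a locus number alone, LOC133978707 (at least 1353-fold lower) and LOC133991853 (at least 873-fold lower). These bounds set the group without counts to a floor of 3 counts over its 3 libraries. Where a group had 1 to 3 counts, the ratio is given with its 95% interval, which like the floor covers counting error alone.

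Muscle transcription factors were higher in nearly every case: of 21 tested (of 25 in the table), 18 rose and 3 fell, with a median of 1.47. The histone methyltransferase smyd1b (gene 133979211), needed in zebrafish for myosin filaments to assemble, had 399, 407 and 390.1 CPM in starvation, against 30.6, 34.2 and 30.3 CPM in proliferation (log2 fold change 3.65 ± 0.12, adjusted p = 5.11e-20). MEF2 factors work with the MyoD family on muscle promoters, and mef2aa (gene 133981491) had 244, 243 and 241 CPM in starvation, against 12.5, 13.4 and 11.9 CPM in proliferation (log2 fold change 4.26 ± 0.11, adjusted p = 4.85e-22). In both genes the starved libraries lay close together and far above the proliferating ones. The copy smyd1a had 107 CPM in starvation and 0.648 CPM in proliferation (log2 fold change 7.37 ± 0.24), and its rise was steeper than that of smyd1b. Another MEF2 gene, mef2cb, rose less, with 289 CPM in starvation and 121 CPM in proliferation (log2 fold change 1.26 ± 0.07). Serum response factor srfb, which binds actin gene promoters, had 145 CPM in starvation and 52.3 CPM in proliferation (log2 fold change 1.47 ± 0.09). The 3 members that fell are cofactors, a kind also found among the members that rose. The transcriptional cofactor eya1 had 20.9 CPM in starvation and 43.9 CPM in proliferation (log2 fold change -1.07 ± 0.11), and eya2 had 5.74 CPM in starvation and 17.9 CPM in proliferation (log2 fold change -1.65 ± 0.19). The serum response factor coactivator mrtfbb had 2.17 CPM in starvation and 43.0 CPM in proliferation (log2 fold change -4.33 ± 0.26). Myogenin (myog), which switches on late muscle genes, had 413 CPM in starvation and 1.89 CPM in proliferation. The MyoD gene itself, myod1, was among the 18 members that rose. The MyoD family member myf6 had no count in any of the 6 libraries, where 3 counts over a group would be 0.039 CPM in starvation and 0.044 CPM in proliferation.

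Inhibitors of the myogenic factors were split, with 10 higher and 8 lower of 21 tested. The repressor hey1 (gene 133996204), a target of Notch signalling, had 252, 300.1 and 262 CPM in starvation, against 15.3, 16.7 and 14.2 CPM in proliferation (log2 fold change 4.14 ± 0.15, adjusted p = 1.23e-18). Id proteins bind the partners of MyoD and keep them from DNA, and id1 rose, with 273 CPM in starvation and 116 CPM in proliferation (log2 fold change 1.24 ± 0.19). The zinc finger repressor zeb2b also rose, with 117 CPM in starvation and 9.20 CPM in proliferation (log2 fold change 3.67 ± 0.13). The groups did not overlap in hey1, id1 or zeb2b. The repressor snai2 fell, with 23.7 CPM in starvation and 88.4 CPM in proliferation (log2 fold change -1.90 ± 0.13). So did mdfi, whose mouse protein holds MyoD family members inactive, with 15.0 CPM in starvation and 39.1 CPM in proliferation (log2 fold change -1.39 ± 0.17). Of Id genes picked after their values were seen, id3 had 14.3 CPM in starvation and 1.42 CPM in proliferation (log2 fold change 3.33 ± 0.29), while id4 was 300.2-fold (interval 53.4 to 11901) lower.

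Genes known from muscle precursors moved both ways, 10 of 19 tested higher and 5 lower. M-cadherin (cdh15), an adhesion protein of satellite cells and young fibres, stood at 1193 ± 34.2 CPM in starvation and 94.0 ± 5.72 CPM in proliferation (SD, n = 3 each). The alpha chain of the muscle laminin receptor, itga7, rose with 669.8 CPM in starvation and 309 CPM in proliferation (log2 fold change 1.12 ± 0.09). Its common partner itgb1a (gene 134002410) had 61.5, 62.7 and 63.5 CPM in starvation, against 579, 612 and 579 CPM in proliferation (log2 fold change -3.24 ± 0.09, adjusted p = 4.03e-21). Every starved value of itgb1a lay far below the lowest proliferating value. The precursor factor pax3b fell, with 72.4 CPM in starvation and 114 CPM in proliferation (log2 fold change -0.66 ± 0.12). The FGF receptor fgfr1a fell further, with 23.7 CPM in starvation and 149 CPM in proliferation (log2 fold change -2.65 ± 0.12). Among genes chosen after their values were seen, the hepatocyte growth factor receptor met had 82.7 CPM in starvation and 15.2 CPM in proliferation (log2 fold change 2.45 ± 0.15) and its ligand hgfa had no count in starvation and was at least 86.9-fold lower.

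Notch signalling holds muscle precursors back from differentiation. Of its 26 tested genes 10 rose and 6 fell, close to the shares of all genes, but single members changed much. The ligand jag1b (gene 133991600) had 4.51, 6.62 and 3.71 CPM in starvation, against 229, 257 and 260.0 CPM in proliferation (log2 fold change -5.67 ± 0.17, adjusted p = 1.28e-20). The repressor her9 (gene 133987521), of a family of Notch targets, had 571, 589.5 and 540.2 CPM in starvation, against 59.0, 50.4 and 62.2 CPM in proliferation (log2 fold change 3.31 ± 0.19, adjusted p = 1.44e-14). Starved libraries were low in jag1b and high in her9, with no overlap in either. The protease adam10a, which helps cut the receptor, fell with 72.2 CPM in starvation and 152 CPM in proliferation (log2 fold change -1.07 ± 0.11). The receptor notch2 fell too, with 20.6 CPM in starvation and 44.9 CPM in proliferation (log2 fold change -1.12 ± 0.16). Picked after their values were seen, other ligands were found almost in starvation alone: dll4 was 1281-fold (interval 229.6 to 50644) higher and dla at least 109-fold higher. The glycosyltransferase lfng, picked in the same way, alters how the receptor reads its ligands and had 0.0874 CPM in starvation and 7.75 CPM in proliferation (log2 fold change -6.34 ± 0.54).

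Genes for adhesion and fusion of myoblasts were lower in 13 and higher in 8 of 26 tested. The list takes only genes with a symbol and holds neither of the fusion genes mymk and mymx. The adhesion receptor jam2a (gene 133976622), required for fusion of fast muscle cells in zebrafish, had 431, 432 and 419 CPM in starvation, against 53.2, 53.3 and 49.8 CPM in proliferation (log2 fold change 3.04 ± 0.11, adjusted p = 4.87e-19). A gene named for myoferlin, a membrane fusion protein, myofl (gene 133992130), had 78.5, 89.4 and 83.2 CPM in starvation, against 537, 588 and 524 CPM in proliferation (log2 fold change -2.72 ± 0.11, adjusted p = 3.45e-18). Both genes were separated without overlap, in opposite directions.

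**Figure D2:**
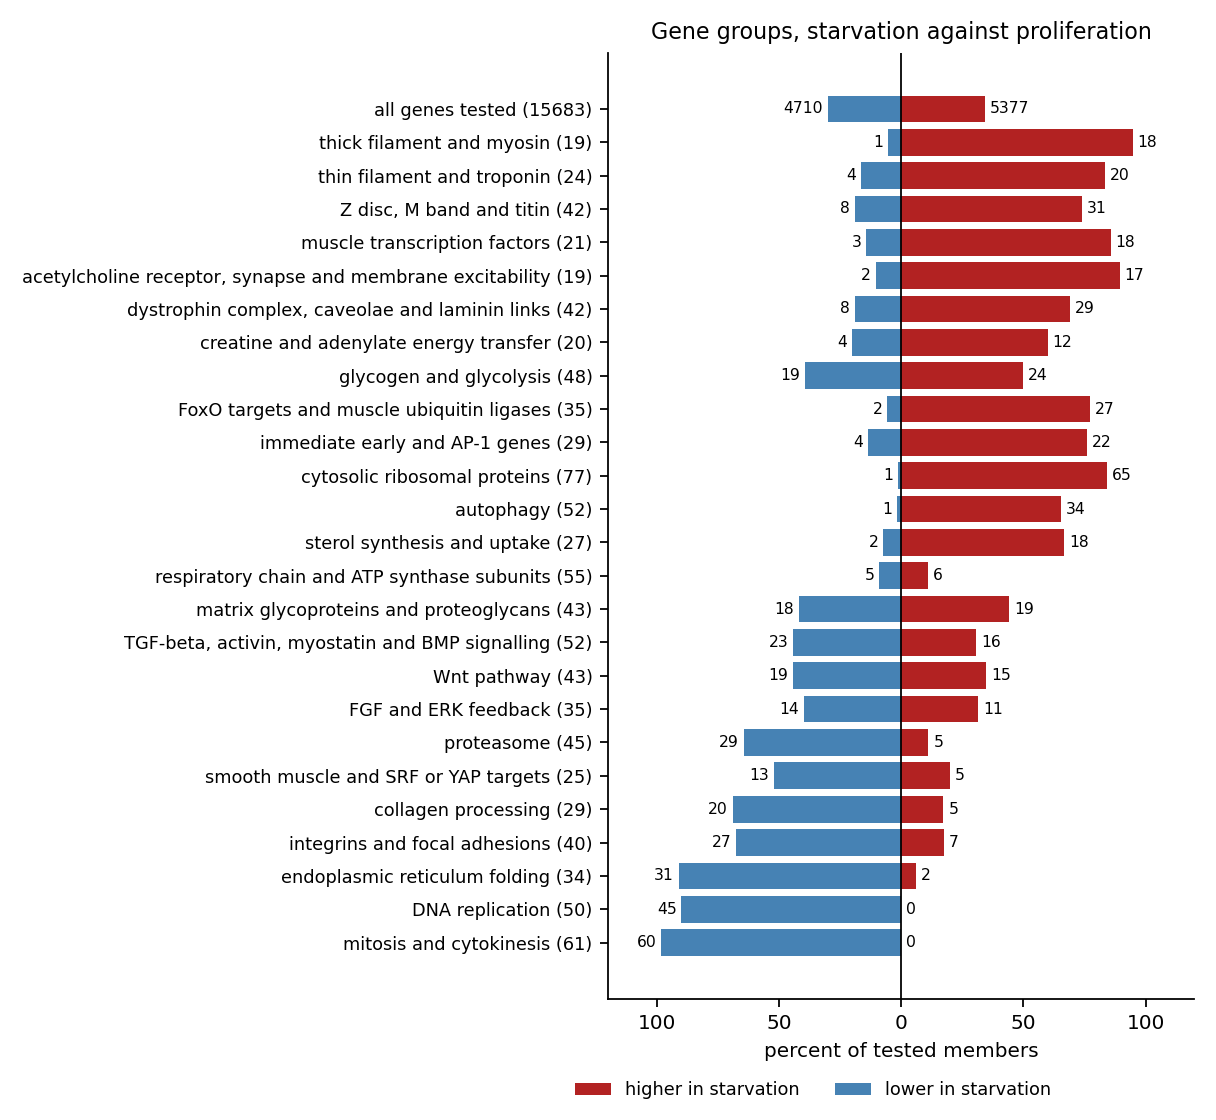
Percent of tested members that passed in each gene group, to the left in blue where lower and to the right in red where higher in starvation, with the number of genes at each bar and the number tested in brackets. All 15683 genes stand at the top for comparison, followed by the sarcomere groups with bars mostly to the right, and mitosis (60 of 61 lower) and replication (45 of 50 lower) stand at the bottom.

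Most sarcomere genes rose. Of 19 thick filament genes tested 18 rose and 1 fell (median 8.31). Of 24 thin filament genes 20 rose and 4 fell, with a median of 5.22. That median was 4.60 with genes of at most 3 counts in 1 group set to their bound or count ratio. Of 42 Z disc, M band and titin genes 31 rose and 8 fell (median 3.77, or 3.84 with such bounds and ratios). Compared directly with serum reduction, starvation was lower in 28 and higher in 2 of these 42 genes. Starvation was lower in 10 and higher in 2 of the thick filament genes, and lower in 12 and higher in 3 of the thin filament genes. Of all genes tested 19.9% were lower than in serum reduction and 17.9% higher. Of titin, the giant spring of the sarcomere, ttn.2 (gene 133992669) had 1043, 839.7 and 797 CPM in starvation, against 24.4, 28.9 and 19.5 CPM in proliferation (log2 fold change 5.20 ± 0.20, adjusted p = 1.75e-18). Starvation replicate 1 was the highest of its group, and the groups did not overlap. The slow type myosin heavy chain myh7ba had 296 CPM in starvation and 0.901 CPM in proliferation (log2 fold change 8.34 ± 0.25). The essential light chain myl1 had 279 CPM in starvation and 1.41 CPM in proliferation (log2 fold change 7.63 ± 0.30). Xin (xirp1), which organises actin at cell attachments, rose less, with 1171 CPM in starvation and 200.3 CPM in proliferation (log2 fold change 2.55 ± 0.13). Members that fell included forms known from other cells. The cytoskeletal tropomyosin tpm4a had 265 CPM in starvation and 1067 CPM in proliferation (log2 fold change -2.01 ± 0.08), and tropomodulin tmod2, known from neurons in mammals, had 74.8 CPM in starvation and 238 CPM in proliferation (log2 fold change -1.67 ± 0.08). The cap of actin barbed ends, capzb, had 227 CPM in starvation and 357 CPM in proliferation (log2 fold change -0.66 ± 0.06). The thick filament gene that fell, mybpc2a, had 0.147 CPM in starvation and 2.68 CPM in proliferation (log2 fold change -4.28 ± 0.61).

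Of 35 genes of calcium handling 20 rose and 7 fell. The sarcoplasmic calcium pump atp2a1l (gene 134003893), which ends each contraction by removing calcium, had 569, 615 and 585 CPM in starvation, against 2.10, 5.19 and 2.82 CPM in proliferation (log2 fold change 7.45 ± 0.22, adjusted p = 1.55e-20). The counter-ion channel tmem38a (gene 133984426), which balances charge during calcium release, had 419, 444 and 406 CPM in starvation, against 0.773, 0.916 and 0.727 CPM in proliferation (log2 fold change 9.03 ± 0.20, adjusted p = 5.19e-23). Both were scarce in every proliferating library and abundant in every starved one. The related channel tmem38b, named after its values were seen, went the other way with 2.07 CPM in starvation and 28.6 CPM in proliferation (log2 fold change -3.77 ± 0.25). Calumenins, calcium-binding proteins of the secretory pathway, fell in both copies. Their copy calub had 235 CPM in starvation and 1255 CPM in proliferation (log2 fold change -2.42 ± 0.08), and calua had 189 CPM in starvation and 930.5 CPM in proliferation (log2 fold change -2.30 ± 0.10).

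Subunits of the muscle acetylcholine receptor, through which nerves trigger contraction, were higher. In the list of receptor, synapse and excitability genes 17 of 19 tested (of 29 in the table) rose and 2 fell, with a median of 2.38, and 1 fell without proliferation replicate 1, starvation replicate 2 or starvation replicate 3. The gamma subunit chrng (gene 133990831), part of the fetal receptor in mammals, had 361, 354 and 351 CPM in starvation, against 35.2, 37.1 and 29.8 CPM in proliferation (log2 fold change 3.38 ± 0.13, adjusted p = 2.59e-18). The epsilon subunit chrne, which takes its place in adult mammals and was picked after its values were seen, had 10.4 CPM in starvation and 0.0434 CPM in proliferation and was 235-fold (interval 80.0 to 1139.6) higher. The alpha subunit chrna1 rose least, with 286 CPM in starvation and 142 CPM in proliferation (log2 fold change 1.01 ± 0.12). The delta subunit chrnd had 60.7 CPM in starvation and 8.36 CPM in proliferation (log2 fold change 2.86 ± 0.15). The muscle sodium channel scn4ab, which carries the action potential, had 63.8 CPM in starvation and 3.47 CPM in proliferation (log2 fold change 4.20 ± 0.22), and the receptor-clustering kinase musk had 40.2 CPM in starvation and 15.8 CPM in proliferation (log2 fold change 1.35 ± 0.11). Acetylcholinesterase (ache), the enzyme that ends the signal, had 9.10 CPM in starvation and 13.0 CPM in proliferation (log2 fold change -0.51 ± 0.19), a fall that no longer passed in 3 of the 6 fits with a library left out. Neuron and glia markers summed to at most 0.982 CPM in any of the 6 libraries, with 1 of 2 tested higher and 0 lower. The one that rose, stmn2b, lost its call without any single proliferation library or without starvation replicate 2. The marker plp1b had 11 counts in starvation and 0 in proliferation, and elavl3, elavl4 and snap25a had no count.

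Laminins and the dystrophin complex join the fibre to its basement membrane. They were counted in a list that also holds genes of caveolae and others, such as capn3a and dysf. Of its 42 tested members 29 rose and 8 fell (median 1.17). The laminin gamma chain lamc1 (gene 133991094) had 701, 629 and 731 CPM in starvation, against 169.6, 218 and 188 CPM in proliferation (log2 fold change 1.84 ± 0.12, adjusted p = 5.02e-13). Its partner lamb2 rose less, with 478 CPM in starvation and 215 CPM in proliferation (log2 fold change 1.15 ± 0.10). Dystrophin (dmd, gene 134006598), lost in Duchenne muscular dystrophy and singled out after its values were seen, had 148, 141 and 129 CPM in starvation, against 0.901, 2.05 and 1.86 CPM in proliferation (log2 fold change 6.44 ± 0.21, adjusted p = 8.77e-20). In lamc1 and dmd every starved library was above every proliferating one. Utrophin (utrn), the relative that replaces dystrophin in some settings, fell with 92.3 CPM in starvation and 169 CPM in proliferation (log2 fold change -0.87 ± 0.13). The sarcoglycan sgcb fell slightly, with 88.8 CPM in starvation and 128 CPM in proliferation (log2 fold change -0.53 ± 0.08). The chains of basement membrane collagen, also picked after their values were seen, were almost absent from proliferation. For col4a1 (gene 133993209) the values were 156, 137 and 123 CPM in starvation, against 0, 0 and 0.0908 CPM in proliferation, a ratio of 4745-fold (interval 1313 to 39183) higher. Its partner col4a2 had 132 CPM in starvation and 0.204 CPM in proliferation (log2 fold change 9.29 ± 0.28). In serum reduction col4a1 had 35.7 CPM and col4a2 had 25.7 CPM.

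Genes of glycogen and glycolysis moved both ways, 24 higher and 19 lower of 48. Lactate dehydrogenase ldha, which turns pyruvate into lactate, fell with 927 CPM in starvation and 3728 CPM in proliferation (log2 fold change -2.01 ± 0.07). Pairs of related enzymes in which 1 form rose and another fell were picked after their values were seen and say nothing of the other enzymes. Aldolase aldoab (gene 134002940), like the form of mammalian muscle, had 834, 800.0 and 843 CPM in starvation, against 1.72, 5.76 and 1.23 CPM in proliferation (log2 fold change 8.15 ± 0.32, adjusted p = 3.63e-18). The form aldocb, related to that of mammalian brain, had 699 CPM in starvation and 2118 CPM in proliferation (log2 fold change -1.60 ± 0.07). Pyruvate kinase pkmb (gene 133982049) had 824, 831 and 811 CPM in starvation, against 0.0429, 3.10 and 0.409 CPM in proliferation (log2 fold change 9.43 ± 0.40, adjusted p = 2.19e-17), whereas its copy pkma had 483 CPM in starvation and 1527 CPM in proliferation (log2 fold change -1.66 ± 0.08). The groups did not overlap in these 4 genes, and proliferation replicate 2 was the highest of its group in aldoab and pkmb. The muscle enolase eno3 had 22.6 CPM in starvation and 0.725 CPM in proliferation (log2 fold change 4.94 ± 0.34), and eno1b had 10.3 CPM in starvation and 289 CPM in proliferation (log2 fold change -4.81 ± 0.17). The muscle phosphofructokinase pfkma had 31.9 CPM in starvation and 0.630 CPM in proliferation (log2 fold change 5.65 ± 0.22), and the platelet form pfkpa had 19.9 CPM in starvation and 71.1 CPM in proliferation (log2 fold change -1.83 ± 0.11). Another enolase, eno1a, rose slightly with 1452 CPM in starvation and 1201 CPM in proliferation (log2 fold change 0.27 ± 0.07). A pair of sodium pump subunits was picked in the same way, with the muscle type atp1a2a at 392 CPM in starvation and 1.24 CPM in proliferation (log2 fold change 8.31 ± 0.18) and the neuronal type atp1a3b lower (log2 fold change -4.36 ± 0.11).

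**Figure D3:**
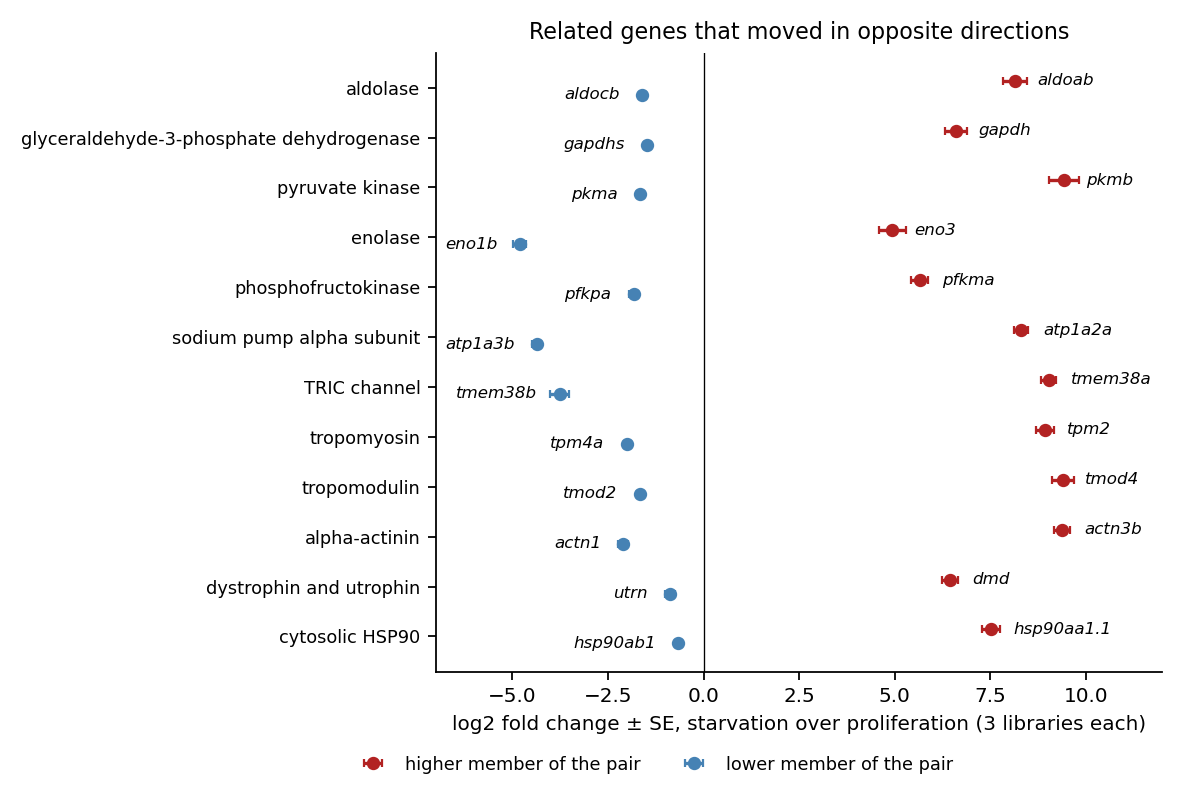
Log2 fold change ± SE of starvation over proliferation (horizontal axis, 3 libraries each) for 12 pairs of related genes picked after their values were seen, with the higher member in red and the lower member in blue. The smallest rise is that of eno3 (4.94) and the largest that of pkmb (9.43), and in each of these 12 pairs the fall is smaller than the rise.

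Creatine kinase, which buffers ATP in muscle, was among the largest gains. Of 20 genes of energy transfer 12 rose and 4 fell. The muscle creatine kinase ckma (gene 133994603) had 3978, 3932 and 3674 CPM in starvation, against 4.38, 16.8 and 5.95 CPM in proliferation (log2 fold change 8.74 ± 0.36, adjusted p = 1.30e-17). Proliferation replicate 2 was the highest of its group here too, far below any starved library. Adenylate kinase ak1, which regenerates ATP from ADP, had 244 CPM in starvation and 1.07 CPM in proliferation (log2 fold change 7.81 ± 0.29). A list of 55 genes of NADH dehydrogenase, succinate dehydrogenase and ATP synthase moved little by comparison. Of these 6 rose and 5 fell (median 0.07), or 10 and 10 when the 6 libraries were fitted with no other group. The list holds no gene of the other respiratory complexes, such as cytochrome oxidase. The ATP synthase subunit atp5f1b had 2203 CPM in starvation and 1884 CPM in proliferation (log2 fold change 0.23 ± 0.07). In the citric acid cycle list 17 of 32 rose and 9 fell, with the mitochondrial isocitrate dehydrogenase idh2 at 713 CPM in starvation and 131 CPM in proliferation (log2 fold change 2.44 ± 0.09). The coactivator of mitochondrial genes ppargc1a, picked after its values were seen, had 26.2, 28.9 and 27.1 CPM in starvation, against 0, 0 and 0.0454 CPM in proliferation, a ratio of 1863-fold (interval 334 to 73603) higher.

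Cell division genes fell together. In the mitosis list 60 of 61 tested fell and none rose (median -1.90), and in the replication list 45 of 50 fell and none rose (median -1.94). The proliferation marker mki67 (gene 134003889) had 60.7, 60.0 and 59.5 CPM in starvation, against 217, 207 and 207 CPM in proliferation (log2 fold change -1.81 ± 0.11, adjusted p = 1.27e-13). The mitotic cyclin ccnb1 had 34.4 CPM in starvation and 154 CPM in proliferation (log2 fold change -2.17 ± 0.15). The replicative helicase subunit mcm4 had 49.2 CPM in starvation and 195 CPM in proliferation (log2 fold change -1.98 ± 0.14). In these genes no starved value reached a proliferating one. Mitosis genes took 0.0817 to 0.0954% of all counts in starvation, 0.0470 to 0.0578% in serum reduction and 0.291 to 0.318% in proliferation. Compared directly, 44 of 61 mitosis genes and 39 of 50 replication genes were higher in starvation than in serum reduction, where 17.9% of all genes were higher and 19.9% lower. The median log2 fold change of starvation over reduction was 0.84 in the mitosis list and 1.005 in the replication list, and mcm6 lay above both. The helicase subunit mcm6 had 34.4 CPM in starvation and 106 CPM in proliferation and 9.79, 5.62 and 4.16 CPM in the 3 serum reduction libraries, and starvation stood above reduction by a log2 fold change of 2.40 ± 0.21, adjusted p = 6.99e-10. That comparison shares its starved libraries with the one against proliferation.

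In a list of regulators of the G1 phase, in which cells decide whether to divide, 9 of 42 rose and 21 fell. The list also holds some genes of later phases, such as cdc25b, wee1 and foxm1. Cyclin ccnd2a (gene 133981573), which growth factors induce, had 192, 171 and 178 CPM in starvation, against 776, 869 and 779 CPM in proliferation (log2 fold change -2.16 ± 0.12, adjusted p = 5.07e-15). Its kinase cdk4 had 80.7 CPM in starvation and 206 CPM in proliferation (log2 fold change -1.35 ± 0.07). Inhibitors of cyclin-dependent kinases went apart. One copy of the Kip1 gene, cdkn1bb (gene 133982329), had 238, 237 and 229 CPM in starvation, against 25.9, 17.4 and 21.3 CPM in proliferation (log2 fold change 3.44 ± 0.12, adjusted p = 3.08e-19). The Cip1 gene cdkn1a (gene 133977900) had 51.0, 53.9 and 48.5 CPM in starvation, against 128, 113 and 132 CPM in proliferation (log2 fold change -1.28 ± 0.10, adjusted p = 4.60e-12), and stood at 171, 165 and 174 CPM in serum reduction. In each of the 3 genes the groups did not overlap, and cdkn1a was lowest in starvation. The pocket protein rbl2, which holds resting cells out of the cycle and was picked after its values were seen, had 9.16 CPM in starvation and 0.898 CPM in proliferation (log2 fold change 3.35 ± 0.23). Targets of p53 rose in 16 and fell in 7 of 25. The anti-proliferative btg1 rose, with 1199.5 CPM in starvation and 467 CPM in proliferation (log2 fold change 1.36 ± 0.07). The p53 inhibitor mdm2 fell slightly, with 91.8 CPM in starvation and 124 CPM in proliferation (log2 fold change -0.44 ± 0.11). 

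Chromatin genes fell in 14 and rose in 10 of 28. The high mobility group protein hmga1a (gene 133988231), known from embryonic and tumour cells in mammals, had 1.91, 1.65 and 1.42 CPM in starvation, against 221, 165 and 219.6 CPM in proliferation (log2 fold change -6.92 ± 0.23, adjusted p = 1.78e-19). The remodeller subunit smarcd3b (gene 134002174), used in heart and skeletal muscle, had 84.6 CPM in starvation and 1.90 CPM in proliferation (log2 fold change 5.47 ± 0.13), with adjusted p = 2.58e-22. Proliferation replicate 2 was the lowest of its group in hmga1a, still far above the starved libraries. The nuclear lamin lmnb1 fell, with 124 CPM in starvation and 217 CPM in proliferation (log2 fold change -0.81 ± 0.09). The enzyme tet3, which oxidises methylated cytosine, rose, with 64.2 CPM in starvation and 21.1 CPM in proliferation (log2 fold change 1.60 ± 0.14). The maintenance methyltransferase dnmt1, chosen after its values were seen, had 13.5 CPM in starvation and 68.4 CPM in proliferation (log2 fold change -2.35 ± 0.14). 

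**Figure D4:**
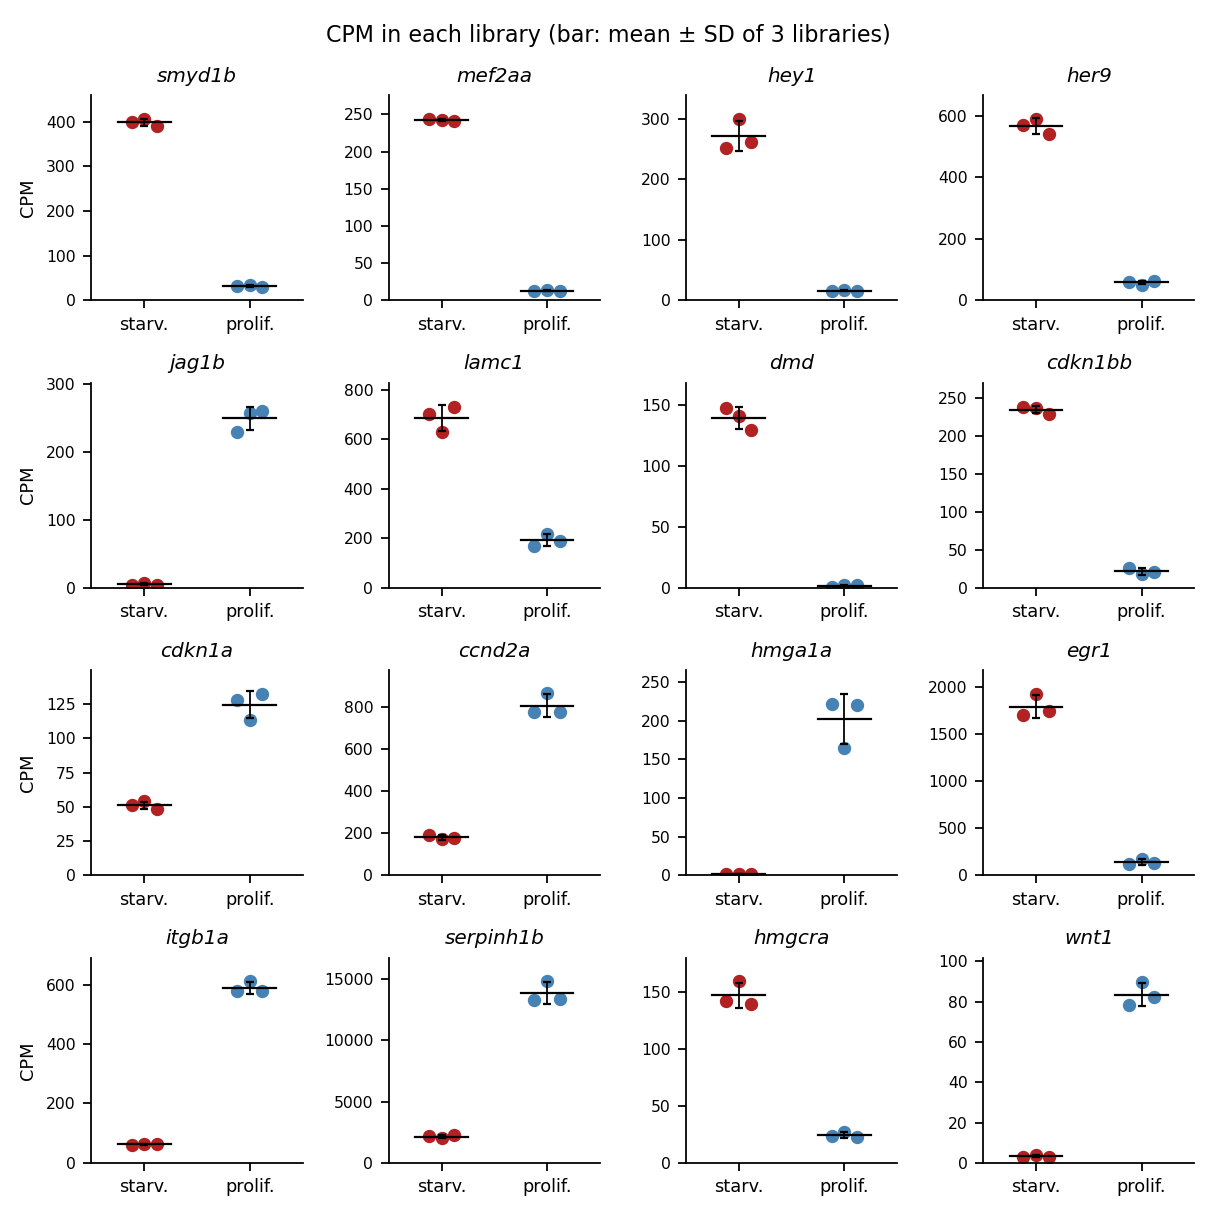
CPM of 16 genes in each of the 3 starved libraries (red, left) and the 3 proliferating libraries (blue, right), each panel with its own linear axis from 0 and with bars for the mean ± SD. The groups are separated in every panel, with starvation above in smyd1b or cdkn1bb, for example, and below in jag1b, cdkn1a or serpinh1b.

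Ribosomal protein genes were higher by small and even amounts. Of 77 tested 65 rose and 1 fell, none by 2-fold, with a median of 0.48. They took 11.2, 10.8 and 10.6% of all counts in starvation, against 8.04, 7.07 and 7.87% in proliferation. In serum reduction the share was 7.04, 7.17 and 6.98%, and 70 of the 77 genes were higher in starvation than there. The large subunit protein rpl3 (gene 133999636) had 4600.1, 4226 and 4181 CPM in starvation, against 2477, 2423 and 2510.5 CPM in proliferation (log2 fold change 0.81 ± 0.07, adjusted p = 2.67e-11). Every starved value lay above every proliferating one. The member that fell, rpl5a, had 243 CPM in starvation and 318 CPM in proliferation (log2 fold change -0.39 ± 0.12). Ribosome assembly genes rose in 20 and fell in 6 of 50, with 3 lower when proliferation replicate 1 or starvation replicate 2 was left out. Their helicase ddx21 had 822 CPM in starvation and 277 CPM in proliferation (log2 fold change 1.57 ± 0.10). Translation factors moved both ways, 12 higher and 15 lower of 42. The elongation factor subunit eef1g had 4528 CPM in starvation and 2150.5 CPM in proliferation (log2 fold change 1.07 ± 0.07). A relative of the proteins that restrain cap-dependent translation, eif4ebp3l, was picked after its values were seen and had 74.1 CPM in starvation and 3.34 CPM in proliferation (log2 fold change 4.47 ± 0.32).

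Folding and collagen processing in the secretory pathway fell. Of 34 folding genes of the endoplasmic reticulum 31 fell and 2 rose. The oligosaccharyltransferase subunit ddost (gene 133988017), which helps add sugars to new proteins, had 184, 164 and 181 CPM in starvation, against 946, 869 and 899 CPM in proliferation (log2 fold change -2.36 ± 0.07, adjusted p = 2.37e-20). The chaperone hspa5, known as BiP, fell with 698 CPM in starvation and 1843 CPM in proliferation (log2 fold change -1.40 ± 0.08). The 2 that rose are the stress factor xbp1, with 988 CPM in starvation and 789 CPM in proliferation (log2 fold change 0.33 ± 0.07), and its target dnajb9a, with 22.0 CPM in starvation and 12.5 CPM in proliferation (log2 fold change 0.81 ± 0.14). Of 29 collagen-processing genes 20 fell and 5 rose (median -0.81). The prolyl hydroxylase p4ha1b (gene 133991987), which stabilises the collagen helix, had 333, 295 and 347 CPM in starvation, against 1446, 1518 and 1476 CPM in proliferation (log2 fold change -2.19 ± 0.08, adjusted p = 2.23e-18). Lysyl hydroxylase plod3 fell, with 588 CPM in starvation and 1449 CPM in proliferation (log2 fold change -1.30 ± 0.08), and its relative plod2 rose, with 416 CPM in starvation and 210.2 CPM in proliferation (log2 fold change 0.99 ± 0.08). The crosslinking lysyl oxidase loxl2b also rose, with 40.0 CPM in starvation and 5.83 CPM in proliferation (log2 fold change 2.77 ± 0.19). HSP47 (serpinh1b) stood at 11208, 9608 and 9685 CPM in serum reduction, and starvation lay below that by a log2 fold change of -2.25 ± 0.08, adjusted p = 1.67e-17.

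**Figure D5:**
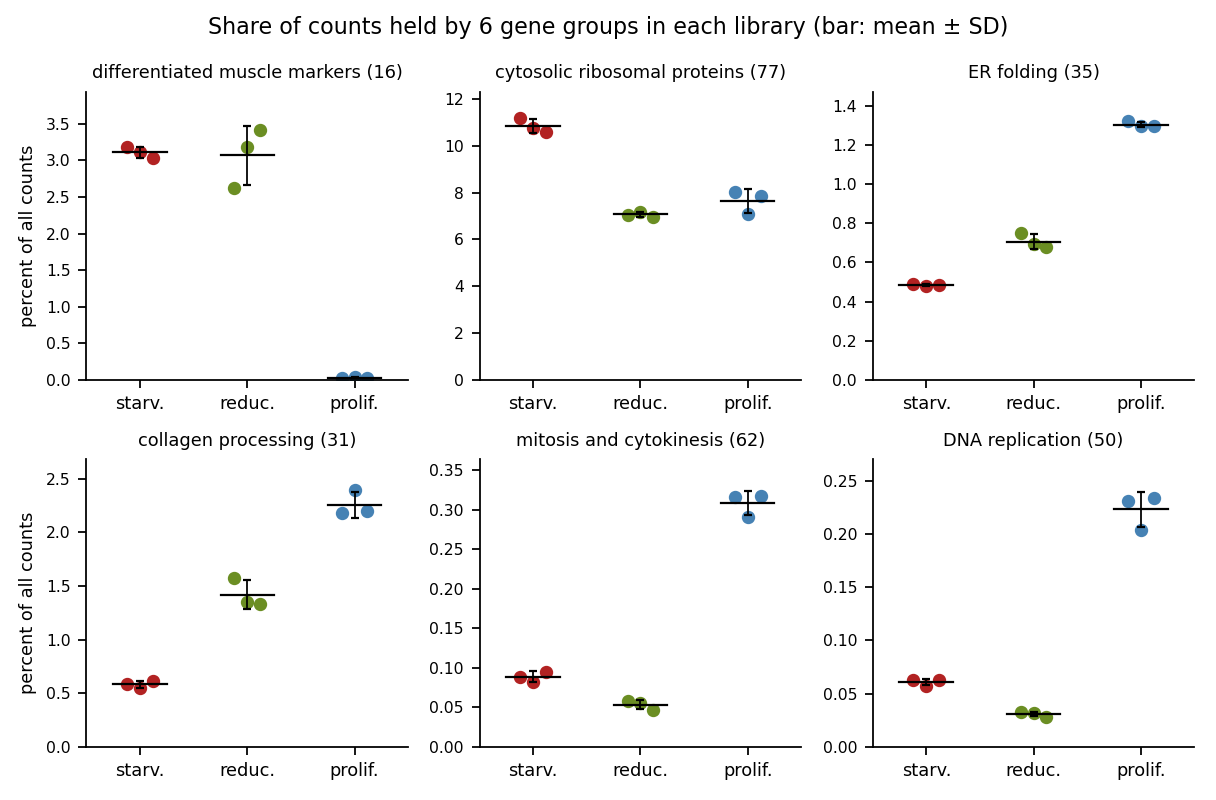
Percent of all counts held by 6 gene groups in each library of starvation (red), serum reduction (green) and proliferation (blue), with bars for the mean ± SD of 3 libraries and the number of genes in brackets. In starvation ribosomal proteins are highest and folding and collagen-processing genes lowest of the 3 conditions, cell division genes lie between reduction and proliferation, and the values of differentiated muscle markers overlap between starvation and reduction.

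The collagens themselves changed less evenly. Of 30 tested (of 43 in the table) 14 rose and 9 fell, and the rises numbered 9 when only genes with a mean of at least 1 CPM were kept or when the 6 libraries were fitted alone. Type I collagen col1a2 (gene 133996656) had 2976, 2713 and 2920.0 CPM in starvation, against 3314, 3386 and 3152 CPM in proliferation (log2 fold change -0.19 ± 0.08, adjusted p = 0.0402). The values did not overlap, but the call of col1a2 was lost in 5 of the 6 fits with a library left out. In serum reduction col1a2 had 11300.0, 9769 and 9629 CPM, and starvation was lower than that by a log2 fold change of -1.83 ± 0.08, adjusted p = 2.60e-15. Type XII collagen col12a1a, known from tendon and muscle sheaths, rose with 1534 CPM in starvation and 491 CPM in proliferation (log2 fold change 1.64 ± 0.12). Type VI collagen col6a1 fell, with 122 CPM in starvation and 422 CPM in proliferation (log2 fold change -1.79 ± 0.12). Other matrix genes were split, 19 higher and 18 lower of 43. The small proteoglycan ogna (gene 133977601) had 762, 662 and 833 CPM in starvation, against 19.2, 23.7 and 19.3 CPM in proliferation (log2 fold change 5.18 ± 0.15, adjusted p = 1.19e-20). The elastic fibre protein efemp2a had 1475 CPM in starvation and 272 CPM in proliferation (log2 fold change 2.44 ± 0.09). The basement membrane proteoglycan hspg2 fell, with 549 CPM in starvation and 1290.4 CPM in proliferation (log2 fold change -1.23 ± 0.14), and so did thrombospondin thbs4b, with 97.3 CPM in starvation and 522 CPM in proliferation (log2 fold change -2.42 ± 0.09). Fibroblast markers, of which type I collagen is a part, summed to 5458 to 5960 CPM in starvation and 6276 to 6756 CPM in proliferation, with 2 of 12 tested higher and 8 lower and no count of tcf21 or thy1 in the 6 libraries. Their part in the matrix changes was not tested.

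Proteases of the matrix and their inhibitors fell in 16 and rose in 12 of 35. The surface protease adam8a had 84.3 CPM in starvation and 988 CPM in proliferation (log2 fold change -3.55 ± 0.11). The membrane protease mmp14b, which activates mmp2 in mammals, rose with 1183 CPM in starvation and 426 CPM in proliferation (log2 fold change 1.47 ± 0.10). Its substrate mmp2 rose alike, with 899 CPM in starvation and 334 CPM in proliferation (log2 fold change 1.43 ± 0.09). Plasminogen activators were picked after their values were seen. The tissue type plat had 17.5 CPM in starvation and 253 CPM in proliferation (log2 fold change -3.85 ± 0.12), while plaub, a urokinase type, had 16.0 CPM in starvation and 0 CPM in proliferation and was at least 372-fold higher.

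Integrins and focal adhesions, by which spread cells hold to the matrix, were mostly lower. Of 40 tested 27 fell and 7 rose (median -1.42). Filamin flna (gene 133987248), which crosslinks actin, had 864, 829.9 and 871 CPM in starvation, against 2602, 3092 and 2634 CPM in proliferation (log2 fold change -1.70 ± 0.14, adjusted p = 4.89e-11). The beta-2 integrin itgb2 (gene 133992540), known from leukocytes, had 48.5, 43.9 and 49.2 CPM in starvation, against 731, 779 and 725 CPM in proliferation (log2 fold change -3.98 ± 0.09, adjusted p = 1.65e-22). No library of one group reached the other in flna or itgb2. The nonmuscle alpha-actinin actn1 had 223 CPM in starvation and 958 CPM in proliferation (log2 fold change -2.10 ± 0.14). Talin tln2a, abundant in mammalian muscle, rose with 213 CPM in starvation and 113 CPM in proliferation (log2 fold change 0.92 ± 0.10). In the list of smooth muscle genes and targets of serum response factor or YAP 13 of 25 fell and 5 rose. The actin-binding tagln had 845 CPM in starvation and 1715 CPM in proliferation (log2 fold change -1.02 ± 0.07), and the light chain myl9b had 382 CPM in starvation and 1126 CPM in proliferation (log2 fold change -1.56 ± 0.07). The coactivator yap1 itself rose, with 332 CPM in starvation and 105 CPM in proliferation (log2 fold change 1.66 ± 0.07). Leukocyte markers summed to 5.41 to 9.24 CPM in starvation and 10.8 to 14.7 CPM in proliferation. Of 3 tested 0 were higher and 2 lower, or 1 lower when the 6 libraries were fitted alone. The marker csf1rb fell, a call lost without proliferation replicate 2, starvation replicate 1 or starvation replicate 2. The marker ptprc had 0 counts in starvation and 4 counts in proliferation, and lcp1, coro1a, spi1a and spi1b had 0 in both. Smooth muscle and pericyte markers summed to 1089 to 1131 CPM in starvation and 2717 to 2831 CPM in proliferation, with 1 of 11 tested higher and 7 lower, or 2 higher without proliferation replicate 3. The part of such cells in the adhesion changes was not tested.

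Signalling by TGF-beta, activin and BMP restrains muscle growth or redirects precursors. In its list 23 of 52 tested (of 62 in the table) fell and 16 rose. The ligand tgfb1a (gene 133980254) had 90.4, 107 and 92.6 CPM in starvation, against 374, 393 and 390.2 CPM in proliferation (adjusted p = 2.18e-16). The BMP antagonist grem2a (gene 133992065) had 9.44, 15.3 and 8.36 CPM in starvation, against 204, 198 and 211 CPM in proliferation (log2 fold change -4.22 ± 0.22, adjusted p = 2.96e-15). Both were lower in every starved library. The receptor tgfbr1b had 55.9 CPM in starvation and 186 CPM in proliferation (log2 fold change -1.73 ± 0.12). The BMP signal transducer smad1 rose, with 48.7 CPM in starvation and 22.3 CPM in proliferation (log2 fold change 1.12 ± 0.09). The inhibitory smad6b, chosen after its values were seen, had 5.44 CPM in starvation and 55.4 CPM in proliferation (log2 fold change -3.36 ± 0.16). Myostatin b (mstnb), a brake on muscle growth, had no count in any of the 6 libraries.

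Wnt genes numbered 19 lower and 15 higher of 43 tested (of 62 in the table), with 8 higher when a mean of at least 1 CPM was required and 9 without proliferation replicate 1. The ligand wnt1 (gene 133987383), picked after its values were seen, had 3.06, 3.81 and 3.09 CPM in starvation, against 78.4, 89.8 and 82.2 CPM in proliferation (log2 fold change -4.66 ± 0.20, adjusted p = 3.13e-17). The ligand wnt10b, picked likewise, had 2.55 CPM in starvation and 64.6 CPM in proliferation (log2 fold change -4.67 ± 0.17). The feedback gene axin2, a common readout of the pathway, fell with 30.9 CPM in starvation and 81.6 CPM in proliferation (log2 fold change -1.40 ± 0.09). The antagonist dact2 rose, with 28.6 CPM in starvation and 2.99 CPM in proliferation (log2 fold change 3.25 ± 0.12). FGF and ERK feedback genes fell in 14 and rose in 11 of 35, where 30.0% of all genes fell and 34.3% rose. Of these the ligand hbegfa had 43.1 CPM in starvation and 150.0 CPM in proliferation (log2 fold change -1.80 ± 0.13). Insulin-like growth factor and TOR genes rose in 21 and fell in 14 of 49. The adaptor grb10b, which dampens the insulin receptor in mammals, had 86.7 CPM in starvation and 215 CPM in proliferation (log2 fold change -1.31 ± 0.13). The TOR inhibitor tsc2 had 84.0 CPM in starvation and 49.5 CPM in proliferation (log2 fold change 0.76 ± 0.08).

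Immediate early genes, which serum induces within minutes in resting cells, were higher in the unfed cultures. Of 29 tested 22 rose and 4 fell (median 1.78). The zinc finger factor egr1 (gene 133986044) had 1698, 1926 and 1749 CPM in starvation, against 118, 176 and 129 CPM in proliferation (log2 fold change 3.66 ± 0.14, adjusted p = 1.50e-18). The AP-1 subunit junbb (gene 134000134) had 1933, 1630.3 and 1760.1 CPM in starvation, against 294, 288 and 302 CPM in proliferation (log2 fold change 2.59 ± 0.13, adjusted p = 9.33e-16). In both the groups lay far apart. The mRNA decay factor zfp36l1a rose, with 423 CPM in starvation and 59.8 CPM in proliferation (log2 fold change 2.82 ± 0.09), and its copy zfp36l1b fell, with 22.6 CPM in starvation and 44.8 CPM in proliferation (log2 fold change -0.98 ± 0.12). Starvation was above serum reduction in 19 of the 29 genes, and egr1 had 974, 886 and 887 CPM there.

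Lists of protein breakdown differed in direction. Of 35 FoxO targets and muscle ubiquitin ligases 27 rose and 2 fell (median 2.20), or 1 fell without starvation replicate 1, and several of them, such as the thin filament partner klhl41a, are also genes of differentiated muscle. Here klhl41a had 259 CPM in starvation and 1.16 CPM in proliferation (log2 fold change 7.79 ± 0.25). The Kelch protein klhl31 had 380.4 CPM in starvation and 12.1 CPM in proliferation (log2 fold change 4.97 ± 0.12). Autophagy genes rose in 34 and fell in 1 of 52 (median 0.54), with 2 lower without starvation replicate 3 and in some other fits. Compared directly with serum reduction, starvation was higher in 2 and lower in 15 of these 52 genes. It was higher in 5 and lower in 12 of the 35 FoxO targets and muscle ubiquitin ligases. Of all genes tested 17.9% were higher than in serum reduction and 19.9% lower. Lysosome genes rose in 17 and fell in 9 of 45 (median 0.18), where 34.3% of all genes rose and 30.0% fell against proliferation. The mitophagy receptor bnip3lb (gene 133994872) had 204, 213 and 204 CPM in starvation, against 56.6, 53.9 and 59.9 CPM in proliferation (log2 fold change 1.86 ± 0.10, adjusted p = 5.43e-15). The autophagosome marker map1lc3b rose less, with 173 CPM in starvation and 119 CPM in proliferation (log2 fold change 0.54 ± 0.07). The proteasome moved by small amounts in the other direction, with 29 of 45 genes lower and 5 higher (median -0.33), or 3 higher without proliferation replicate 2 or starvation replicate 2. Its catalytic subunit psmb5 had 208 CPM in starvation and 389.6 CPM in proliferation (log2 fold change -0.91 ± 0.10).

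Sterol genes, which respond to the supply of cholesterol in serum, rose in 18 and fell in 2 of 27. The rate-limiting reductase hmgcra (gene 133979471) had 142, 159.6 and 139 CPM in starvation, against 23.7, 27.1 and 22.4 CPM in proliferation (log2 fold change 2.59 ± 0.11, adjusted p = 5.35e-17). The lipoprotein receptor ldlrb fell, with 121 CPM in starvation and 338 CPM in proliferation (log2 fold change -1.49 ± 0.11). Genes of oxidative stress and iron fell in 21 and rose in 10 of 40. The peroxidase prdx1 had 457 CPM in starvation and 2667 CPM in proliferation (log2 fold change -2.54 ± 0.13). The transferrin receptor tfr1b, which takes up iron, had 276 CPM in starvation and 1739 CPM in proliferation (log2 fold change -2.66 ± 0.08). A list of ATF4, the factor of amino acid shortage, with its targets and some genes upstream of it was split into 18 higher and 14 lower of 40. The glutathione-degrading chac1 rose, with 918 CPM in starvation and 335 CPM in proliferation (log2 fold change 1.45 ± 0.08). The stress factor ddit3, known as CHOP, rose with 809 CPM in starvation and 354 CPM in proliferation (log2 fold change 1.19 ± 0.11). The serine and glycine enzyme shmt2 fell, with 212 CPM in starvation and 409 CPM in proliferation (log2 fold change -0.95 ± 0.07).

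Of 37 heat shock genes 17 rose and 10 fell. The chaperone hsp90aa1.1 (gene 133997566), which folds myosin in zebrafish together with unc45b, had 2949.8, 2741 and 2956 CPM in starvation, against 12.1, 24.2 and 10.9 CPM in proliferation (log2 fold change 7.52 ± 0.23, adjusted p = 1.75e-20). Every starved library lay far above every proliferating one. The general form hsp90ab1 fell, with 1945 CPM in starvation and 3099 CPM in proliferation (log2 fold change -0.67 ± 0.09). In amino acid metabolism, glutamine synthetase glulb (gene 133984430) had 427, 459 and 366 CPM in starvation, against 72.0, 56.9 and 66.1 CPM in proliferation (log2 fold change 2.68 ± 0.10, adjusted p = 1.75e-18). The tyrosine-degrading enzyme tat fell, with 17.4 CPM in starvation and 257 CPM in proliferation (log2 fold change -3.88 ± 0.12). Clock genes rose in 15 and fell in 3 of 29 (median 0.69), and the hours of collection are not given in the labels. The clock repressor bhlhe40 had 78.6 CPM in starvation and 21.8 CPM in proliferation (log2 fold change 1.85 ± 0.15), and clocka had 4.75 CPM in starvation and 11.5 CPM in proliferation (log2 fold change -1.28 ± 0.21).

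The label muscle stem cell was set against marker genes. Markers of muscle precursors summed to 2180 to 2207 CPM in starvation and 681 to 739 CPM in proliferation, with 8 of 12 tested higher and 3 lower. The genes cdh15 and itga7 made up most of that sum and nearly all of its rise. Markers of differentiated muscle summed to 29530 to 31870 CPM in starvation and 234 to 322 CPM in proliferation, and all 16 rose. The defining precursor factor pax7a was low in both groups, with 1.34 CPM in starvation and 0.263 CPM in proliferation, and its rise (adjusted p = 0.0174) was lost in 4 of the 6 fits with a library left out. The early factor myf5 had 0.761 CPM in starvation and 0 CPM in proliferation. Endothelial markers summed to 3.97 to 6.66 CPM in starvation and 30.8 to 40.3 CPM in proliferation, with 1 of 5 tested higher and 3 lower and cdh5 at 0 counts in starvation and 5 counts in proliferation. Among them fli1 fell, with 2.17 CPM in starvation and 20.4 CPM in proliferation (log2 fold change -3.25 ± 0.25). Epithelial markers summed to 8.76 to 16.7 CPM in starvation and 131.0 to 138.5 CPM in proliferation, with 0 of 2 tested higher and 1 lower, or 1 higher without starvation replicate 1. In proliferation krt18a.1 made up nearly all of that sum, with 9.24 CPM in starvation and 133 CPM in proliferation (log2 fold change -3.86 ± 0.18), while esrp1 and grhl2b had no count in the 6 libraries. Pigment cell and neural crest markers summed to 1.05 to 2.04 CPM in starvation and 22.0 to 25.4 CPM in proliferation, with 1 of 5 tested higher and 2 lower, or 1 lower in 5 of the 6 fits with a library left out. Most of the sum in proliferation, but not in starvation, was kitb, with 0.404 CPM in starvation and 22.3 CPM in proliferation (log2 fold change -5.77 ± 0.27), and tyr and foxd3 had no count. Cartilage and bone markers summed to 65.9 to 71.1 CPM in starvation and 191.8 to 209.9 CPM in proliferation, where acanb made up most of the sum, but 3 of 5 tested were higher in starvation and 1 was lower. Fat cell markers summed to 9.06 to 11.9 CPM in starvation and 22.0 to 25.9 CPM in proliferation, with 0 of 6 tested higher and 4 lower. The lower members numbered 2 when the 6 libraries were fitted alone or when a mean of at least 1 CPM was required. Tendon markers summed to 3600.0 to 3662 CPM in starvation and 1183 to 1331 CPM in proliferation, with 7 of 12 tested higher and 4 lower, and egr1 and col12a1a made up most of the sum in starvation. Heart muscle markers reached at most 0.108 CPM in any of the 6 libraries, and none had enough counts to be tested. The part of other cell types in the changes was not tested.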

How the data were processed

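Poly(A) RNA was sequenced as unstranded read pairs, per the labels. The authors deposited a table of whole-number counts per gene and a table of normalized values. Per the submitters' processing notes the tools were FastQC, STAR, Salmon 1.10.1 and DESeq2, with the genome build not given in these sources. The normalized table, a signal deposited by the authors as counts divided by size factors, served for 1 alternative alone.

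Genes low in all groups were left out (filterByExpr, 8506 of 24189), and the 24 Mack1 libraries were fitted as 8 group means with edgeR 4.0.16 (TMM, quasi-likelihood test, Benjamini-Hochberg). The SE is the log2 fold change over the square root of F. The steps were tested on simulated data in which far fewer genes changed than here. Alternatives were RLE size factors, other filters, the groups compared alone, the replicate block, libraries left out, DESeq2 1.42.0 and limma 3.58.1. Gene symbols are from a RefSeq gene list, matched by the gene numbers of the count table. The gene groups hold only genes with a symbol, while 9691 of 24189 genes have a locus number alone.

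The comparison and the gene lists were chosen with earlier results of these data known. Named genes are the members of a list that passed with the highest mean CPM, up to 3 in the opposite direction, all members of lists of up to 12, the 12 largest gains and losses, the 10 highest and lowest folds, and the 5 most abundant genes counted in 1 group alone. Other genes are said to be picked after their values were seen. Deviations of same-numbered libraries from their group means correlated at 0.020, -0.007 and -0.029. No shared effect of the replicate number was seen, which cannot show whether same-numbered libraries were set up together.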

Additional observations from a re-analysis of the deposited data

How the results depend on the processing

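The counts of genes higher and lower kept within 1.5 times of those reported under every alternative. Without 1 library of either group, 5037 to 5214 genes were higher and 4313 to 4459 lower in starvation than in proliferation, and 2255 to 2424 higher and 2702 to 2838 lower than in serum reduction. With the replicate block the counts were 5336 higher and 4667 lower against proliferation and 2755 higher and 3072 lower against reduction. No shared effect of the replicate number was seen between starvation and proliferation. DESeq2 called 5465 higher and 4737 lower, and limma's trend fit to the authors' normalized table called 5467 and 4694. With a mean of at least 1 CPM required, 4779 were higher and 4473 lower. Of the 575 genes that the naming rule and later picks gave, 552 passed, 41 of these lost the call under at least 1 alternative, mostly with a library left out, and 0 changed sign past the threshold. Of 140 list counts 21 moved over 1.5 times under at least 1 alternative. Genes of NADH dehydrogenase, succinate dehydrogenase and ATP synthase numbered 10 higher and 12 lower when 1 starvation library of Mack1 p77 was left out of the fit. Proteasome genes numbered 3 higher without proliferation replicate 2 or starvation replicate 2, and synapse genes 1 lower without proliferation replicate 1 or either of starvation replicates 2 and 3. The cause was not tested. Depth limits genes under about 3 counts in a group, where 223 tested genes had at most 3 counts in both groups.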

Other observations

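Lipid and nucleotide genes changed in ways not described above. Of 39 genes of fatty acid synthesis and fat storage 18 rose and 13 fell. Lipoprotein lipase lpla (gene 133984377), which frees fatty acids from lipoproteins and is made by muscle and fat, had 283, 254 and 260.0 CPM in starvation, against 15.5, 25.3 and 17.7 CPM in proliferation (log2 fold change 3.77 ± 0.12, adjusted p = 5.79e-20). The groups did not overlap. The desaturase scd rose, with 293 CPM in starvation and 122 CPM in proliferation (log2 fold change 1.26 ± 0.11), and the citrate lyase aclya fell, with 40.7 CPM in starvation and 123 CPM in proliferation (log2 fold change -1.59 ± 0.10). Purine and pyrimidine genes fell in 16 and rose in 7 of 26. The purine synthesis enzyme paics had 116 CPM in starvation and 305 CPM in proliferation (log2 fold change -1.40 ± 0.10), and the salvage enzyme hprt1 had 270.1 CPM in starvation and 119 CPM in proliferation (log2 fold change 1.18 ± 0.08).

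Thyroid, retinoid, polyamine and Hedgehog genes also held large single changes. Iodothyronine deiodinase dio3a (gene 134000983), which inactivates thyroid hormone, had 3.24, 3.63 and 3.45 CPM in starvation, against 56.7, 47.3 and 56.2 CPM in proliferation (log2 fold change -3.96 ± 0.16, adjusted p = 1.01e-17). The retinoic acid carrier crabp2b had 115 CPM in starvation and 50.6 CPM in proliferation (log2 fold change 1.19 ± 0.16). The antizyme oaz2a, which limits polyamines, had 37.5 CPM in starvation and 2.68 CPM in proliferation (log2 fold change 3.80 ± 0.22), while spermidine synthase srm had 62.2 CPM in starvation and 155 CPM in proliferation (log2 fold change -1.32 ± 0.08). Of 12 Hedgehog genes tested 5 rose and 2 fell, or 3 rose without proliferation replicate 2 and 1 fell without starvation replicate 1. The effector gli1 had 6.54 CPM in starvation and 0.452 CPM in proliferation (log2 fold change 3.83 ± 0.35), and its fellow pathway target ptch1 did not pass, with 1.09 CPM in starvation and 0.782 CPM in proliferation. The cytokine feedback gene socs3a had 104 CPM in starvation and 27.6 CPM in proliferation (log2 fold change 1.91 ± 0.10), in a list of immune response genes with 15 higher and 11 lower of 37.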
